A study of Mus musculus with 104 samples.

Results

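The 24 arrays described here hold the day curve of muscle stem cells (satellite cells) from old mice on a control diet. They were chosen by their titles, which name the control diet and do not name adult mice, and the 3 other arms of the series hold 22, 26 and 32 further arrays. The cells came from skeletal muscle of Per1-Venus BAC transgenic mice with a C57B6/J background, so every mouse carried a fluorescent reporter driven by the Per1 gene's regulatory DNA. The mice were 55 to 69 weeks old when the study's adaptation phase of 3 weeks began, ate the control diet without limit for the 25 weeks after it, and carried an age tag of 83 to 97 weeks. Cells were collected at 6 times, named T0, T4, T8, T12, T16 and T20 by the hour, and each time has 4 arrays. The design text calls the times zeitgeber times, which by convention count from lights-on. It also says that the mice killed on a day all belonged to 1 time point. Differences between times therefore cannot be fully told apart from differences between days of collection. The 4 arrays of a time, called biological replicates in the titles, are taken here as 4 mice. The sources used here do not give the sorting gate. Of the other arms, the day curves of adult control mice (22 arrays) and of old calorie restricted mice (26 arrays, 30% less food) were used only for a test of difference. All arrays titled adult control carry the age tag of the old mice, and titles were used.

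Muscle stem cells lie quiescent between the fibre and its basement membrane and re-enter the cell cycle when muscle is injured. Like most cells, they carry a molecular clock. In it, the activators BMAL1 (gene Arntl) and CLOCK or NPAS2 bind E-box elements and switch on the Per and Cry genes, whose proteins return to block the activators. In a second loop the same activators switch on REV-ERB receptors such as Nr1d2, which repress Arntl at response elements that ROR receptors activate. The PAR bZIP factors Dbp, Tef and Hlf carry the rhythm to output genes through D-box elements, where Nfil3 acts as their repressor. Glucocorticoid hormone, which itself cycles over the day, is a further timing signal that reaches cells from the blood.

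Values are the authors' normalised array signals on a log2 scale, so a difference of 1 is a doubling of signal. In each of the 11853 genes measured above the filter, a cosine of 24 h period was fitted, which gives a peak hour and an amplitude, the distance from the curve's middle to its peak. A gene is called rhythmic where the limma F test of the cosine, adjusted by Benjamini-Hochberg over all genes, is under 0.05. By this rule 1276 genes (10.8% of those tested) were rhythmic in the old control-diet cells, and 3356 had an unadjusted p under 0.05. Amplitudes of the rhythmic genes ran from 0.10 to 1.56 with a median of 0.31, against a median of 0.14 over all genes. The median fitted range from trough to peak was 1.54-fold, and 150 rhythmic genes had a range of at least 2-fold. A model with a free mean for each of the 6 times called 1521 genes (12.8%), and 888 of the 1276 rhythmic genes were among them. In 1198 of the rhythmic genes the highest time-point mean lay within 4 h of the fitted peak. Correlations between the 24 arrays ran from 0.935 to 0.980. Leaving out each array in turn gave 1032 to 1318 rhythmic genes, the lowest count without T0 replicate 2. A fit to these 24 arrays alone gave 902, of which 776 were shared.

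The fitted peaks gathered in 2 parts of the day. The 4 h window around 0 h held 434 rhythmic genes (34.0%), and the window around 12 h held 265 (20.8%). The window around 20 h held 205 (16.1%), that around 4 h 142 (11.1%), that around 8 h 125 (9.80%) and that around 16 h 105 (8.23%). Curves that peaked around 8 h and 12 h were steeper, with median amplitudes of 0.38 in both windows against 0.28 around 0 h and 0.25 around 20 h. From 0 to 12 h 595 genes peaked, and from 12 to 24 h 681. Without the T12 arrays 723 genes were rhythmic, without T16 768 and without T20 836.

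**Figure D1:**
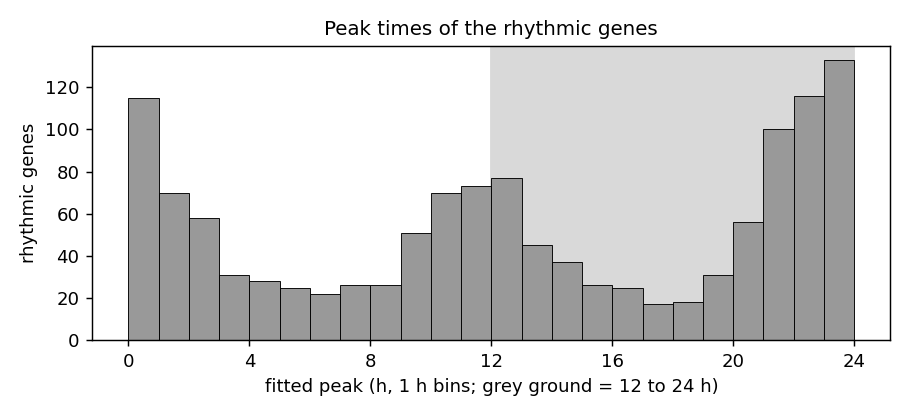
Number of rhythmic genes (vertical axis) by fitted peak hour in 1 h bins (horizontal axis), with hours 12 to 24 on a grey ground. The tallest bars stand around 0 h and a second, lower group stands around 12 h, where the 4 h windows held 434 and 265 genes.

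The core clock cycled with its usual opposition of activators and repressors. Of 29 measured clock genes 18 were rhythmic (against 10.8% of all genes), and 13 of these 18 stayed rhythmic whichever single array was left out. Arntl, the activator whose loss stops the clock, read 7.30, 7.94, 7.74 and 7.14 at T20, 6.66, 7.70, 7.23 and 7.17 at T0, and 7.56, 6.94, 7.20 and 7.59 at T4. It read 6.56, 5.71, 5.77 and 5.18 at T8, 4.62, 5.19, 4.42 and 4.88 at T12, and 4.82, 6.24, 6.75 and 6.89 at T16. All 4 arrays at T12 lay below every array at T20, T0 and T4, and T16 replicate 1 alone of its time lay as low as T12. The fitted peak was at 23.5 h ± 0.42 (SE), the amplitude 1.30 ± 0.14 and the range 6.02-fold (limma adjusted p = 4.42e-10). Npas2, the partner that can stand in for CLOCK, ran beside it, with 7.89, 7.94, 8.07 and 8.26 at T0 and 6.86, 6.97, 6.88 and 6.77 at T12. Its groups at those times lay far apart, and its fitted peak was at 22.95 h ± 0.43 with a 2.33-fold range (limma adjusted p = 4.42e-10). Arntl2, the second BMAL gene, peaked at 0.17 h ± 0.68 with amplitude 0.29, and the receptor gene Rora at 23.5 h ± 0.96 with amplitude 0.28. Clock itself did not pass the rhythm test (amplitude 0.13, limma adjusted p = 0.47), though its T8 arrays were lower than the other times by 0.50, a call lost without T8 replicate 2, 3 or 4.

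The repressors and output factors named next had fitted peaks between 9.0 and 12.5 h. Nr1d2, the REV-ERB receptor that represses Arntl, read 9.20, 9.45, 8.74 and 9.24 at T8 and 7.59, 7.57, 6.82 and 7.61 at T20. The groups at T8 and T20 did not overlap, and the curve peaked at 9.0 h ± 0.35 with a 3.02-fold range (limma adjusted p = 1.10e-13). Dbp read 7.77, 8.08, 8.14 and 8.04 at T8, 7.50, 7.45, 7.67 and 7.50 at T12 and 5.97, 6.42, 6.41 and 5.97 at T20. No array at T8 or T12 was as low as any at T20, T0 or T4, and the fitted peak was at 10.3 h ± 0.56 with a 2.99-fold range. Per3 read 9.40, 8.61, 8.99 and 9.98 at T12 and 7.18, 6.79, 6.69 and 6.83 at T20. Its T12 arrays stood above every array of the other times, and it peaked at 11.98 h ± 0.43 with a 4.59-fold range. Per2 read 7.94, 8.14, 8.23 and 8.88 at T12 and 6.05, 6.98, 6.85 and 5.69 at T0. It peaked at 12.5 h ± 0.53 with a 3.21-fold range, and its T0 arrays spread over more than 1 log2 unit. Per1, whose regulatory DNA also drives the reporter, had a flatter curve, with amplitude 0.27 ± 0.07 and a peak at 10.0 h, and lost its call without T0 replicate 1, 3 or 4.

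In order of fitted peak the rhythmic clock genes began with Nr1d2 and continued with Cry2 at 9.62 h, Per1, Wee1 (a kinase that restrains entry into mitosis) at 10.1 h and Dbp. Bhlhe40, Hlf, Tspan4 and Tef followed between 11.1 and 11.7 h, then Per3, Per2 and Ciart, a repressor of the activator pair, at 12.8 h. After a gap came Nfil3, the D-box repressor, at 20.5 h, Noct, which acts on cofactors of metabolism, at 21.9 h, Npas2, Rora, Arntl and Arntl2. Standard errors of these peaks ran from 0.35 h to 1.06 h, and differences between the peaks of single genes were not tested. None of the 7 measured clock kinases and ubiquitin ligases (Csnk1d, Csnk1e, Csnk2a1, Gsk3b, Btrc, Fbxw11 and Usp7) was rhythmic, with a median amplitude of 0.07. Among other E-box targets Bhlhe41, Usp2 and Lonrf3 did not pass. Calls were lost for Rora without T12 replicate 4, for Noct without T12 replicate 2 or T20 replicate 2, for Bhlhe40 without T0 replicate 4 or T12 replicate 4, and for Wee1 without T0 replicate 1 or 4, T8 replicate 2 or T12 replicate 3.

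**Figure D2:**
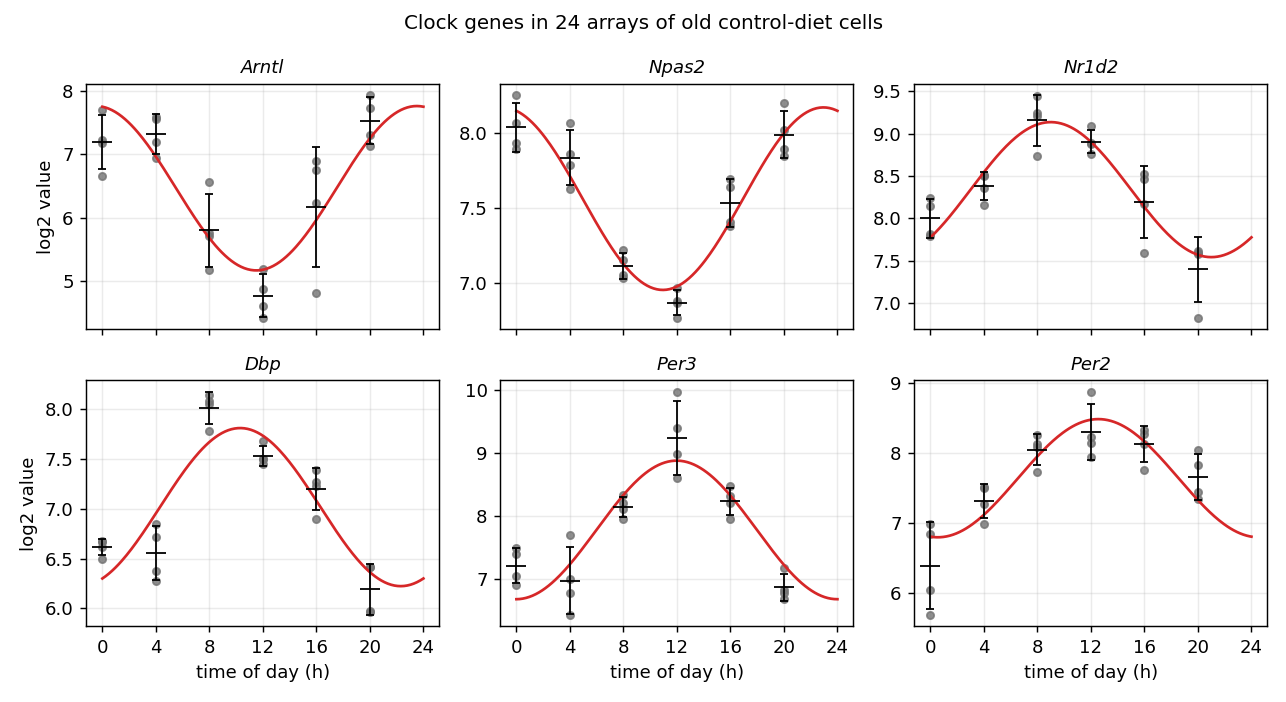
Log2 value (vertical axis) of 6 clock genes by time of day in hours (horizontal axis). Grey points are single arrays, black marks the mean ± SD of 4 arrays, and red lines the fitted 24 h cosine. Arntl and Npas2 are high from T20 to T4 and lowest at T12, where Per3 and Per2 are highest, while Nr1d2 and Dbp are highest at T8.

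Because E-boxes and D-boxes are the elements through which clock proteins act, the promoters of the rhythmic clock genes were searched for them. RefSeq windows of GRCm38.p6, from 250 bases before to 50 after a start, were found for 15 of the 18 genes, with 19 windows in all. The search used both strands and exact matches to the E-box CACGTG, the D-box forms TTATGTAA and TTACGTAA, the cAMP response element TGACGTCA, and the ROR, glucocorticoid and heat shock elements. An E-box stood in 5 of the 19 windows (26.3%), against 7.15% of all 32851 windows of this length and 9.67% of those of the tested genes. The clock lists include known E-box targets, Ciart and Tspan4 among them, so the higher share was partly chosen in advance. The genes with an E-box are shown with the matched letters in capitals, 5′ to 3′ on the gene's strand, to set the element beside the peak hour of its gene. Their peaks lay at 10.0 h (Per1), 11.2 h (Tspan4), 11.7 h (Tef) and 12.8 h (Ciart, whose window held 3 E-boxes at 116, 58 and 44 bases before the start), all in the part of the day opposite to Arntl. Nr1d2, Dbp, Cry2, Hlf and Per3, with no E-box in their windows, peaked in that part of the day too.
Ciart (chr3:95882237-95882374, minus strand): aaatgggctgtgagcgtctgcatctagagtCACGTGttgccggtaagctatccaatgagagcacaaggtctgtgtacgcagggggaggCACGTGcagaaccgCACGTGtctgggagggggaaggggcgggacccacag
Tef (chr15:81802516-81802581, plus strand): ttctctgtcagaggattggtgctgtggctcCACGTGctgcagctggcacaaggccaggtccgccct
Tspan4 (chr7:141476299-141476364, plus strand): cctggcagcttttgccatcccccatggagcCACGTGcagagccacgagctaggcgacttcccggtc
Per1 (chr11:69098753-69098818, plus strand): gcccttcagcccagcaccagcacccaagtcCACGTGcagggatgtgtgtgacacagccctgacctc

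Per3, the Per gene of largest amplitude, had no E-box in its window but held 2 D-boxes, at 205 and 158 bases before the start. Only 1.06% of all windows held a D-box. Arntl held 1 match to the element shared by ROR and REV-ERB receptors, 28 bases after the second of its 2 listed starts, an element found in 0.435% of all windows.
Per3 (chr4:151044786-151044900, minus strand): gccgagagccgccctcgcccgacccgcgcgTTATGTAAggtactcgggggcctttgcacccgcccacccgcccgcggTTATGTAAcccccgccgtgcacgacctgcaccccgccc
Arntl (chr7:113207528-113207557, plus strand): ggaaggcagaAAGTAGGTCAgggacggagg
Hlf held 1 cAMP response element, 9 bases before its start, an element in 1.79% of all windows and 2.79% of those of the tested genes. Windows of Nr1d2, Dbp, Npas2, Cry2, Noct, Arntl2, Rora and Nfil3 held none of the elements searched. Over all rhythmic genes the share of windows with an E-box was 9.82%, close to the 9.67% of tested genes. By peak window it was 7.19% around 0 h, 12.8% around 4 h, 11.9% around 8 h, 12.1% around 12 h, 10.1% around 16 h and 9.0% around 20 h. These shares describe letters in a short window and say nothing of binding.

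Outside the clock lists, the largest curve with little scatter belonged to Sphk2, which encodes a kinase that makes sphingosine-1-phosphate. It read 8.89, 9.11, 8.72 and 8.98 at T8 and 5.64, 6.61, 6.49 and 5.94 at T20, with every T8 and T12 array above every array of the other times. The peak was at 10.7 h ± 0.29 and the range 8.03-fold (limma adjusted p = 2.75e-18). In the RefSeq annotation Sphk2 overlaps Dbp, whose peak lay beside it, so the 2 signals may not be independent. Tnnc2, troponin C of fast muscle fibres, had the largest amplitude, 1.56 ± 0.33, but its arrays were scattered. They read 8.02, 9.23, 8.44 and 6.49 at T12 and 5.74, 5.10, 3.28 and 4.51 at T0. Those groups did not overlap, while T16 ran from 5.15 to 8.61. Tnnc2 is a fibre gene. The mean of the 12 measured myofibre markers, a score that holds Tnnc2 itself, overlapped between these times. It ran from 5.88 to 7.23 at T12 and from 5.22 to 6.45 at T0. Of the 12 markers Tnnc2 alone was rhythmic (8.33%, beside 10.8% of all genes), and up to 3 were when 1 array was left out. With the myofibre score as a covariate 1191 genes were rhythmic. What part fibre RNA had in the Tnnc2 curve was not tested.

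By fitted peak, each part of the day had its own leading genes. Around 0 h, after Arntl, stood Iqsec3, an exchange factor for ARF proteins, with 8.99, 9.15, 9.18 and 9.14 at T0 against 7.10, 7.86, 6.83 and 6.82 at T16. Its T0 arrays were all but level, and its peak was at 1.58 h with a 3.38-fold range. Crybg1 peaked at 23.2 h (2.9-fold) and Mab21l1 at 23.3 h. Plau, the urokinase that activates plasminogen outside the cell, was chosen after its values were seen. It read 9.20, 9.10, 8.59 and 8.78 at T0 and 7.79, 6.86, 7.54 and 7.45 at T12, with no overlap, and peaked at 22.6 h ± 0.47 (2.40-fold, limma adjusted p = 1.88e-08). Around 4 h the leaders were Lrrc49 at 4.73 h (3.55-fold), the kinase gene Mark1 at 2.26 h (3.04-fold), Fndc3c1 at 2.85 h and the receptor phosphatase gene Ptprz1 at 2.13 h (2.36-fold). Lrrc49 was not even within its times, with 6.62, 5.38, 5.08 and 5.99 at T0. By time-point means Mark1 and Ptprz1 were highest at T0.

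Around 8 h, beside Nr1d2, stood Cpe, the carboxypeptidase that trims peptide hormones, at 9.82 h (3.12-fold), Pcp4l1 at 6.13 h, the chloride channel gene Clcn2 at 9.20 h and Kank1 at 9.5 h. Around 12 h followed Syp, synaptophysin, at 10.9 h (3.00-fold). Around 16 h Fmo2, a flavin monooxygenase, read 9.54, 9.51, 9.23 and 9.70 at T16 and 7.38, 7.20, 8.04 and 6.86 at T0. Its T16 arrays were tightly grouped, 1 T12 array of 10.18 stood above them, and the peak was at 14.5 h ± 0.61 (4.44-fold, limma adjusted p = 2.62e-05). Zfp949, a zinc finger gene, peaked at 15.1 h (4.18-fold), Bcl7b at 14.5 h and Osbpl6 at 16.5 h. Around 20 h amplitudes were smaller, led by Ebf4 at 18.7 h (2.21-fold) and Atp6v1a, a subunit of the proton pump of lysosomes, at 22.0 h (2.10-fold). By time-point means Cpe was highest at T12, Ebf4 at T16 and Atp6v1a at T0. All genes named here from Iqsec3 to Atp6v1a stayed rhythmic whichever single array was left out.

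Time-point means add steps that a cosine does not follow. A step at 1 time cannot be told apart from an effect of its collection days. Each time was set against the mean of the other 5, which gave 1329 calls among 71118 contrasts of a gene and a time (1.87%, with 11157 at an unadjusted p under 0.05). T0 had the most, with 293 genes higher (2.47%) and 173 lower (1.46%), and 265 of its 466 calls fell on rhythmic genes. The balance of directions depended on the scaling, since with an added quantile normalisation T0 had 206 higher and 242 lower. T12 followed with 106 higher (0.894%) and 126 lower (1.06%), T20 with 94 higher (0.793%) and 120 lower (1.01%), and T16 with 71 higher (0.599%) and 87 lower (0.734%). T4 had 68 higher (0.574%) and 77 lower (0.65%), and T8 55 higher (0.464%) and 59 lower (0.498%). With array weights T8 had 268 calls, T12 269 and T16 266, and T0 still had the most, 360. The T0 count fell to 294 without T0 replicate 1 and to 270 without T0 replicate 2. At the other times, calls fell from 145 to 77 without T4 replicate 2, from 114 to 42 without T8 replicate 2, from 232 to 127 without T12 replicate 4, from 158 to 79 without T16 replicate 3 and from 214 to 137 without T20 replicate 3. Omission of T4 replicate 4 (83), T8 replicate 4 (56), T12 replicate 1 (151) and T16 replicate 1 (96) moved them by more than 1.5 times as well.

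Some genes that glucocorticoid hormone induces stood low at T0. Of 18 measured genes of that list, 6 were lower at T0 and 0 higher, against 1.46% and 2.47% of all genes, and the list's median difference was -0.20 against 0.04 over all genes. Zbtb16, a zinc finger transcription factor strongly induced by the hormone, read 7.38, 7.39, 6.27 and 7.08 at T0, while its 20 other arrays ran from 9.23 to 10.70. Every T0 array lay well below every other array, and the difference from the other 5 times was -2.88 ± 0.27 (SE). Fkbp5, a co-chaperone that dampens the glucocorticoid receptor, read 6.90, 7.45, 7.14 and 6.996 at T0 and between 8.18 and 9.71 elsewhere, lower by 1.77 ± 0.21. Tsc22d3 (GILZ), which mediates part of the hormone's anti-inflammatory action, read 6.99, 7.64, 6.80 and 7.29 at T0 and between 8.49 and 9.79 elsewhere, lower by 1.69 ± 0.20. In these 3 genes no T0 array lay in the range of the rest. Klf15, a metabolic regulator, was lower by 0.83 and Per1 by 0.55. Klf9, another hormone-induced factor chosen after its values were seen, read 10.76, 11.02, 10.81 and 11.01 at T0 against 11.05 to 11.33 elsewhere, a drop of only 0.30.

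The cosine fitted this step poorly. Of the 18 genes 3 were called rhythmic (Tsc22d3, Per1 and Zbtb16), at a share of 16.7% beside 10.8% of all genes, and 4 (Zbtb16, Fkbp5, Klf15 and Tsc22d3) had a 12 h component. Without any 1 of T0 replicates 1, 3 or 4 none of the 18 was called rhythmic, and without T0 replicate 2 it was 1. The T0 calls were steadier, with 5 or 6 of the 18 lower whichever array was left out and 6 in the fit to these 24 arrays alone. Usp54, a gene outside that list, was lower at T0 by 1.498 ± 0.18. So was Trp53inp1, a p53 target that takes part in autophagy, by 1.29 ± 0.23. The muscle stem cell score, given with the cell type markers, had its highest mean at T0, and with it as a covariate 5 of the 18 were lower at T0.

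**Figure D3:**
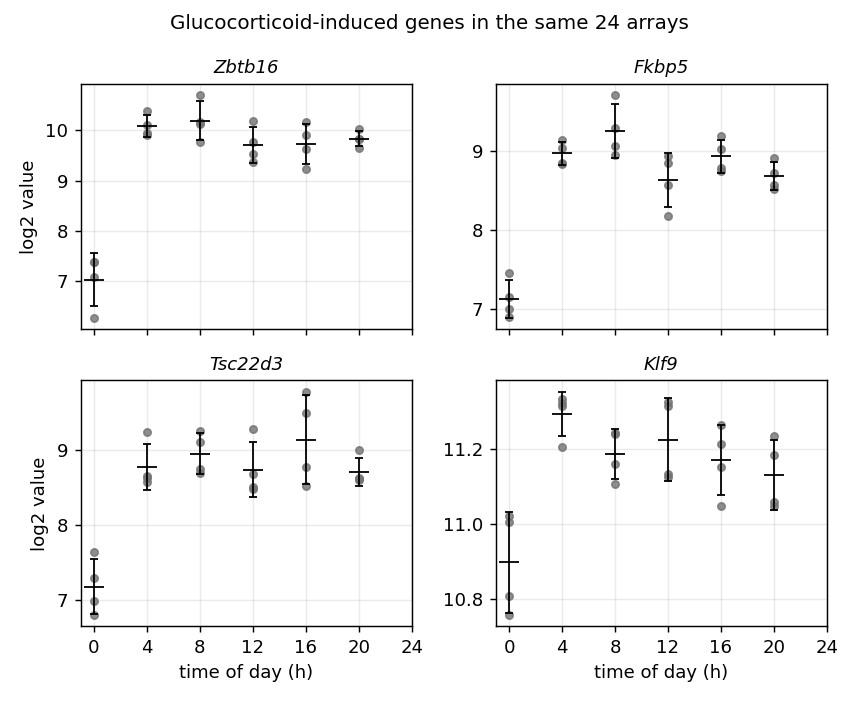
Log2 value (vertical axis, its own scale in each panel) of Zbtb16, Fkbp5, Tsc22d3 and Klf9 by time of day in hours (horizontal axis). Grey points are single arrays and black marks the mean ± SD of 4 arrays. In Zbtb16, Fkbp5, Tsc22d3 and Klf9 the 4 arrays at T0 lie below all 20 others.

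Higher at T0 were 5 of 23 muscle stem cell markers (Pax7, Myod1, Itga7, Fgfr4 and Cd34) and 0 were lower, beside 2.47% and 1.46% of all genes. The list's median difference was 0.26 against 0.04 over all genes. Its 2 brightest markers, Gpx3 and Sdc4, were lowest at T0, with means of 12.39 and 12.11. Their highest means were 12.45 at T16 and 12.22 at T12, and neither was called lower at T0. These are differences of 1.04-fold and 1.08-fold near the highest value of the series, 12.84, and the Sdc4 groups overlapped. Myod1, the regulator of commitment to the muscle lineage, read 11.18, 10.82, 10.75 and 10.91 at T0 and 10.10, 10.13, 10.21 and 10.19 at T12, with no overlap. It peaked at 21.8 h ± 0.76 (1.65-fold, limma adjusted p = 0.0011), and 1 T20 array of 11.49 exceeded the T0 values. Pax7, the factor that defines satellite cells, was chosen after its values were seen and read 10.05, 10.30, 9.90 and 10.14 at T0 and 9.35, 9.34, 9.37 and 9.23 at T16. Its T0 arrays were higher than the other times by 0.49 ± 0.14, a call lost in 7 of the 24 omissions of 1 array. The Pax7 cosine did not pass (limma adjusted p = 0.15). The T0 call of Myod1 was lost without T0 replicate 1 and in the fit to these arrays alone (limma adjusted p = 0.144). Fgfr4, a fibroblast growth factor receptor, was higher at T0 by 0.42 ± 0.07 and rhythmic with a peak at 0.04 h, a rhythm call lost without T0 replicate 2, 3 or 4 or T12 replicate 4. The count of 5 fell to 2 without T0 replicate 1 or 2. It was 3 in the fit to these arrays alone, with quantile normalisation or with array weights. With the muscle stem cell score as a covariate it was 1. That score holds the 5 markers themselves, so this fall was largely built in. In such bulk RNA a larger share of a cell type and more RNA of a gene per cell cannot be told apart.

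Insig1, the brake on sterol synthesis, was higher at T0 by 0.83 ± 0.14. Also higher there were Vegfa, the endothelial growth factor, by 0.70 ± 0.13, the puma gene Bbc3 by 0.48 ± 0.09 and Xrcc5, a subunit of the Ku DNA end binder, by 0.86 ± 0.17. These 4 calls held under every single-array omission. The largest rise at T0, in the developmental factor Sox11, was 1.35 ± 0.37 but rested on T0 replicate 1. Its arrays read 11.42, 9.68, 9.08 and 8.90, and the call was lost without replicate 1 or 2.

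Genes of the actin cytoskeleton and targets of SRF, the factor that responds to free actin, held 12 rhythmic members among 25 measured (48.0%, beside 10.8% of all genes). Of these, 5 peaked around 0 h, 2 around 4 h, 4 around 8 h and 1 around 20 h, and none around 12 or 16 h. Actg1, cytoplasmic actin, peaked at 1.56 h ± 0.62 (1.44-fold, limma adjusted p = 4.44e-05), and its T0 mean of 10.98 ± 0.10 (SD, n = 4) lay above its T16 mean of 10.24 ± 0.17. Vcl, vinculin of focal adhesions, peaked at 1.33 h ± 0.67 and Ankrd1, a stress-responsive muscle ankyrin, at 22.96 h ± 0.80. The actin-binding Cnn2 peaked at 5.54 h ± 0.73 (2.14-fold). At T16, 4 of the 25 were lower (Mrtfa, Actg1, Cnn2 and Vcl) and 1, Pdlim7, higher, with a median difference of -0.27 against -0.01 over all genes, of which 0.734% were lower and 0.599% higher. The 12 rhythmic genes became 7 without T4 replicate 3 or T8 replicate 1 and 6 in the fit to these arrays alone. The 4 lower at T16 became 1 without T16 replicate 1 or 2, and 2 without T16 replicate 4 or T0 replicate 1. The score of pericyte and smooth muscle markers, whose cells share actin genes, ran from 8.92 to 9.43 at T16. It ran from 9.37 to 9.82 at T4 and from 8.96 to 10.09 at T0, and both ranges overlapped that of T16. With that score as a covariate 7 of the 25 were rhythmic and 1 was lower at T16. What part such cells had in the actin curves was not tested.

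Extracellular matrix genes held 10 rhythmic members of 45 (22.2%, beside 10.8% of all genes), of which 6 peaked around 0 h and 2 around 12 h. Col5a3, a chain of fibrillar collagen V, peaked at 1.97 h ± 0.57 with a T0 mean of 9.72 ± 0.09 (SD, n = 4) and a T12 mean of 8.83 ± 0.16 (limma adjusted p = 5.85e-06). Loxl1, which cross-links elastin, peaked at 22.8 h ± 0.72 (2.03-fold) and the collagen gene Col5a1 at 23.9 h. Fbln1, a fibulin, ran opposite to them, with a peak at 11.01 h ± 0.70 and a 2.9-fold range. At T0, 5 of the 45 were higher and 2 lower, beside 2.47% and 1.46% of all genes. The 5 became 2 without T0 replicate 1, 2 or 4, between 3 and 5 without any other array, 3 with quantile normalisation or array weights, and 1 with the muscle stem cell score as a covariate. The 2 became 0 without T0 replicate 4 and 1 without T0 replicate 2. At T12, 4 were lower (Col4a1, Col5a3, Loxl1 and Mmp2), beside 1.06% of all genes, and 1 without T12 replicate 3.

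In the mitochondrial respiratory chain the step came at T20. Of 85 measured genes of oxidative phosphorylation 11 were lower at T20 and 0 higher, against 1.01% and 0.793% of all genes, with a median difference of -0.30 against 0.02. With array weights 7 were lower. Ndufa9, a subunit of complex I, read 6.62, 6.38, 6.85 and 6.52 at T20 and 7.57, 7.67, 7.56 and 7.73 at T8. It was lower at T20 by 0.84 ± 0.21, T0 replicate 3 at 6.45 was as low, and the call was lost without T20 replicate 2 or 4. Sdhb, the iron-sulphur subunit of complex II, was chosen after its values were seen and read 6.94, 7.98, 7.93 and 7.32 at T20, overlapping other times. It was lower by 0.64 ± 0.16, a call lost without T20 replicate 1 or 4. The count of 11 fell to 4 without T20 replicate 1, to 2 without T20 replicate 4 and to 3 in the fit to these arrays alone. As a 24 h rhythm 7 of the 85 passed (8.24%, beside 10.8% of all genes), among them Cox7a1, a muscle form of a complex IV subunit, at 10.2 h ± 0.76 and Uqcrc1 of complex III at 2.97 h.

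Lipid and sugar metabolism showed single genes rather than whole lists. Cpt1b, which admits fatty acids to mitochondria, peaked at 1.17 h ± 0.58, with means of 6.98 ± 0.12 (SD, n = 4) at T0 and 5.96 ± 0.12 at T12 (limma adjusted p = 9.01e-06). Acaa2, the last enzyme of mitochondrial beta oxidation, ran opposite to it and peaked at 13.3 h ± 0.71, with 9.17 ± 0.19 at T12 and 8.30 ± 0.10 at T0. In all, 4 of 27 fatty acid oxidation genes were rhythmic (14.8%, beside 10.8% of all genes), and 2 without T0 replicate 1 or 4. Of 17 sterol synthesis genes 4 were rhythmic (Srebf2, Sc5d, Insig1 and Mvk), with peaks between 22.8 and 2.88 h. That count was 2 without T16 replicate 3 and 0 in the fit to these arrays alone. Of the 17, 2 were lower at T16 (Cyp51 and Srebf2), beside 0.734% of all genes, 4 without T16 replicate 2 and 1 without T16 replicate 1 or 3. Srebf2, the list's master regulator, was lower at T16 by 0.76 ± 0.13. Glycolysis held 3 rhythmic genes of 23, led by Pgm2 at 22.7 h (2.25-fold), and 1 without T0 replicate 4 or T12 replicate 3 or 4 and in the fit to these arrays alone. Insulin and mTOR signalling had 3 of 24, and 2 in that fit.

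Rhythmic counts of stress and quality-control lists stand beside the 10.8% of all genes. The unfolded protein response had 4 rhythmic genes of 23, with Herpud1 at 11.1 h and the chaperones Hspa5 and Dnajb11 at 1.93 and 2.87 h, and 1 of 23 without T0 replicate 2. Autophagy and lysosome genes had 6 of 34, and 2 in the fit to these arrays alone, with Becn1, which starts autophagosomes, at 13.6 h and the cathepsin Ctsl at 21.7 h. DNA repair had 5 of 38, with 2 without T0 replicate 1 or T16 replicate 1, 3 without T0 replicate 2 or 3 or any 1 T12 array, and 1 in the fit to these arrays alone. Xpa, the damage verifier of nucleotide excision repair, read 3.90, 4.64, 4.36 and 3.93 at T20 and was lower there by 1.58 ± 0.39. All of these values but 4.64 lay below log2 4.5, the threshold for dim probe sets. The Xpa call was lost without T20 replicate 1 or 4. The p53 targets had 3 of 19, and 5 without T4 replicate 2. NF-kB and cytokine genes had 4 of 24, and 2 without T12 replicate 2 or 4. Of 18 heat shock genes, 14 ATF4 targets and 21 histone genes 0 were rhythmic by limma, though 1 heat shock gene passed without T4 replicate 2 or 4 and 1 histone gene without T0 replicate 2 or T12 replicate 4.

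Of the machinery of protein and RNA handling, the cytosolic ribosomal protein genes had 0 of 68 rhythmic by limma and a median amplitude of 0.05. Mitochondrial ribosomal proteins had 8 rhythmic genes of 72, beside 10.8% of all genes. The 8 became 4 without T12 replicate 2, and 5 without T0 replicate 2 or 3, T4 replicate 3, T8 replicate 2 or 4, T12 replicate 3 or T20 replicate 3. Translation factors had 6 of 53, and 2 in the fit to these arrays alone. The proteasome had 4 of 43, all with fitted peaks between 4.63 and 5.20 h (Psmb7, Psmb8, Psmd1 and Psmd5). By time-point means Psmb7 was highest at T0, Psmb8 at T8, and Psmd1 and Psmd5 at T4. In Psmb7 and Psmd5 the arrays of the highest and lowest times overlapped. The proteasome count was 1 without T16 replicate 1 or 3. It was 2 without any 1 T0 array, T8 replicate 1, T12 replicate 3 or T20 replicate 2, 3 or 4. Splicing factors had 8 of 61, with Hnrnpul2 at 6.54 h ± 0.72 and Hnrnpl at 21.8 h ± 0.74. At T20, 6 splicing genes were lower and 2 higher, beside 1.01% and 0.793% of all genes, and 3 lower without T20 replicate 1. Cell cycle and replication genes had 1 of 40, the thymidylate synthase gene Tyms at 7.96 h (1.81-fold). That count was 2 without T0 replicate 2, T12 replicate 2 or 4 or T16 replicate 2, and 4 without T0 replicate 1.

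Interferon-responsive genes had 4 rhythmic members of 19, beside 10.8% of all genes. The 4 became 1 without T12 replicate 1 and in the fit to these arrays alone, and 2 without T8 replicate 1, T12 replicate 2 or 3, T16 replicate 3 or T20 replicate 3. Of the 19, 3 (Oas2, Irf7 and Irf9) were higher at T20 with 0 lower, against 0.793% of all genes. Irf9, part of the interferon-activated factor ISGF3, was higher by 0.53 ± 0.11, and the T20 count was 1 in the fit to these arrays alone. Antigen presentation and complement genes had 4 of 16, with Serping1, the inhibitor of complement C1, at 21.9 h and C1s1 at 8.81 h. TGF-beta and BMP genes had 1 of 38 rhythmic and Notch genes 1 of 17, counts that ran from 0 to 3 and from 0 to 2 when 1 array was left out. Of other signalling lists, Wnt had 3 rhythmic genes of 23 and FGF, HGF and MAPK feedback 5 of 19. The 5 became 3 without T0 replicate 2 or T20 replicate 2 and 2 in the fit to these arrays alone. Among them Fgf2 was higher at T16 by 1.11 ± 0.26 and peaked at 14.2 h, while the feedback inhibitor Spry2 peaked at 22.9 h. The call of Fgf2 at T16 was lost without T16 replicate 4, and its rhythm call without T4 replicate 4 or T16 replicate 1, 3 or 4. That of Spry2 was lost without T0 replicate 1 or T12 replicate 3 or 4.

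**Figure D4:**
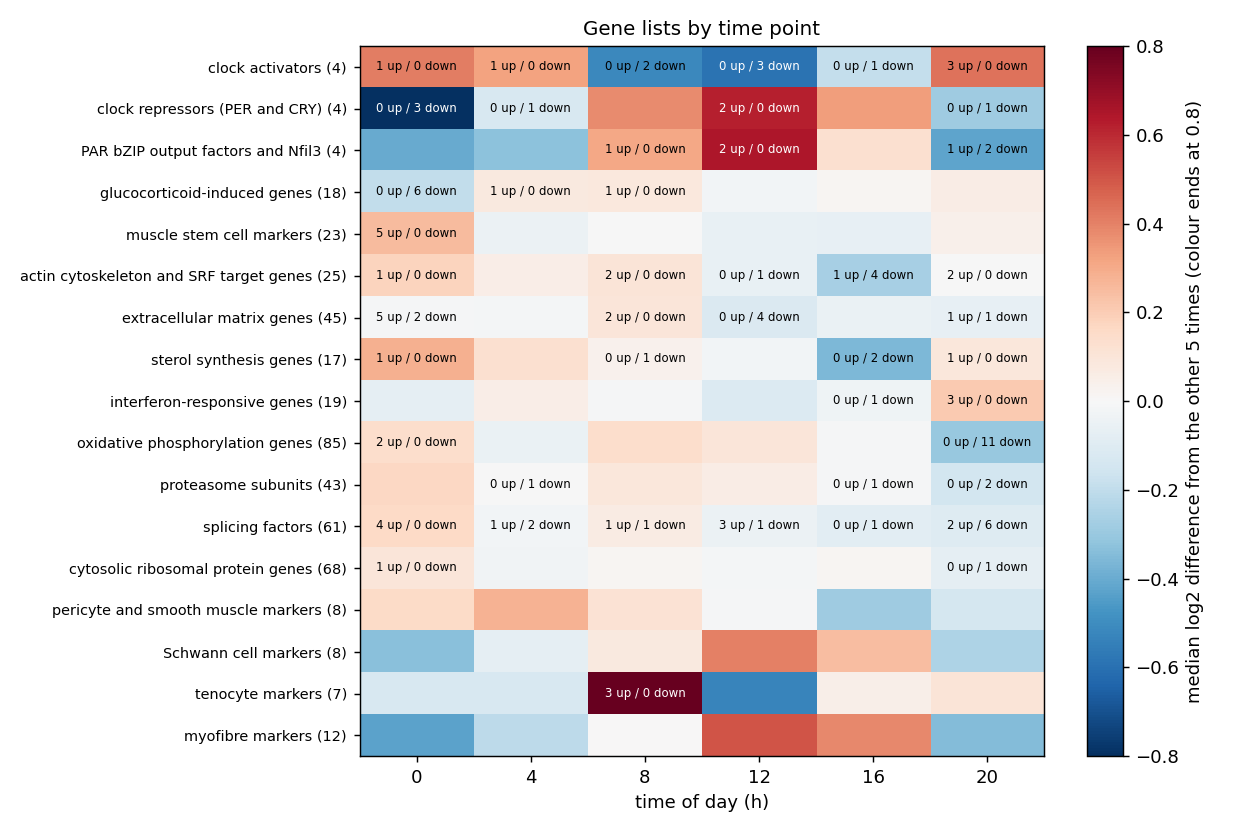
Gene lists (rows, with the number of measured genes) by time of day in hours (columns). Colour gives the list's median log2 difference from the mean of the other 5 times, red higher and blue lower, and the text in a cell the number of genes called higher (up) and lower (down). Cells with calls include 6 glucocorticoid-induced genes lower at T0 and 5 muscle stem cell markers higher there. Others are 11 oxidative phosphorylation genes lower at T20, 6 splicing factors lower at T20 and 3 tenocyte markers higher at T8. Leaving out 1 array took the 11 to as few as 2 and the 3 tenocyte markers to 1.

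Markers of other cell types moved over the day as well. The score of the 23 muscle stem cell markers, their mean log2 value, ran from 9.56 to 9.84 at T0 and from 9.30 to 9.61 at the other times. Of the 12 Schwann cell markers 8 were measured and 4 were rhythmic, beside 10.8% of all genes. These were Sox10, the glial lineage factor, at 13.6 h, the neuregulin receptor Erbb3 at 11.9 h and the myelin genes Mbp at 12.4 h and Cnp at 10.4 h. The Schwann score ran from 9.28 to 9.48 at T12 and from 8.70 to 9.02 at T0, with single arrays at 9.79 (T16 replicate 2) and 8.32 (T20 replicate 2). These 4 calls became 1 without T0 replicate 2 or 4 or T12 replicate 4, and 2 without T12 replicate 1 or 2, T16 replicate 2 or T20 replicate 2. In the fit to these arrays alone 1 of the 8 was rhythmic. With the Schwann score as a covariate 924 genes were rhythmic, 803 of them among the 1276.

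Of 7 measured tenocyte markers 3 were higher at T8, beside 0.464% of all genes. Chad, chondroadherin, read 5.73, 8.73, 6.36 and 6.98 at T8 and between 4.27 and 6.46 elsewhere, higher by 1.85 ± 0.46, a call lost without T8 replicate 2. Thbs4, thrombospondin 4 of tendon matrix, read 7.73, 9.26, 9.07 and 8.65 at T8, higher by 1.47 ± 0.40, but 1 T20 array of 9.08 was as high, and the call was lost without T8 replicate 2, 3 or 4. Comp, of cartilage and tendon matrix, was higher by 1.40 ± 0.26, and 0 of the 7 were rhythmic. The tenocyte score ran from 5.96 to 6.93 at T8 and from 5.11 to 6.25 at other times. The count of 3 was 1 without T8 replicate 2 and 0 with the tenocyte score as a covariate. That score is the mean of the same 7 markers, so the fall to 0 was largely built in. Pericyte and smooth muscle markers had 2 rhythmic genes of 8 (beside 10.8% of all genes), Myh11 at 6.59 h ± 0.87 (2.28-fold) and Acta2 at 6.05 h. The 2 became 1 without T4 replicate 3, T8 replicate 1, T16 replicate 2 or 3 or T20 replicate 2 or 3, and 4 without T4 replicate 2. Their score reached 10.09 in T0 replicate 1. Of endothelial markers 3 of 9 were rhythmic (Tek, Esam and Egfl7), beside the same 10.8% of all genes, and 1 in the fit to these arrays alone. Of fibroadipogenic progenitor markers 0 of 9 were, and 1 without T0 replicate 1 or 3 or T12 replicate 3. Blood cell markers were scarce, with 4 of 11 macrophage, 6 of 10 lymphocyte, 2 of 7 neutrophil and 2 of 6 erythroid markers above the filter. Of the 4 macrophage markers 2 were rhythmic, beside 10.8% of all genes. These were the complement gene C1qa at 12.5 h and the growth factor receptor gene Csf1r at 17.5 h, with amplitudes of 0.14 and 0.16. C1qa was also higher at T12 by 0.23, a call lost in 12 of the 24 omissions of 1 array. These 2 calls became 1 in 11 of those omissions and 0 in the fit to these arrays alone. What part these cells had in the gene curves was not tested.

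**Figure D5:**
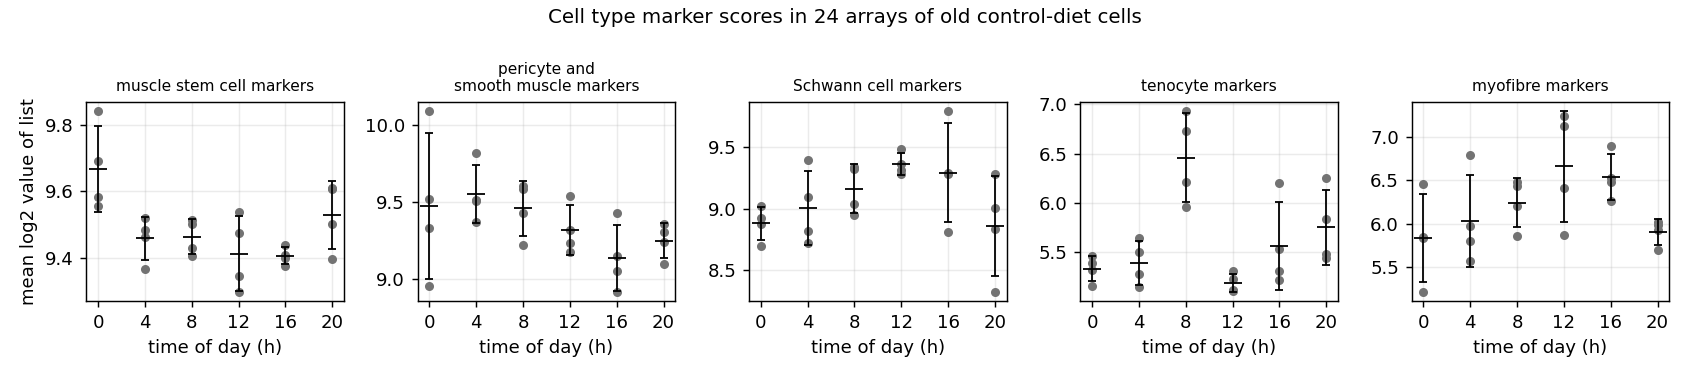
Mean log2 value of the measured markers of 5 cell types (vertical axis, its own scale in each panel) by time of day in hours (horizontal axis). Grey points are single arrays and black marks the mean ± SD of 4 arrays. The muscle stem cell score is highest at T0, the tenocyte score at T8 and the Schwann cell score at T12.

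A 12 h component was called in 123 genes (1.04%, with 1672 at an unadjusted p under 0.05), and 22 of these were also rhythmic at 24 h. It marks a departure from a single 24 h cosine, which a step at 1 time can give as well as 2 peaks a day. In 48 of the 123 the time farthest from the others was T0. The smallest p-values belonged to Zfp809, lower at T0 by 0.96 ± 0.15, Spats2l, higher at T0 by 0.85 ± 0.12, Lmo2, higher at T0 by 1.10 ± 0.19, the phospholipase gene Pld1 and the aldehyde-clearing dehydrogenase gene Adh5. Pld1 was lower at T0 and T12, by 0.73 and 0.67, and higher at T16 by 0.71, though its T12 call was lost in 17 of the 24 omissions. Adh5 was lower at T20 by 1.19 ± 0.16 and higher at T12 by 0.78 ± 0.16. The count of 123 was 75 without T8 replicate 3, 78 without T0 replicate 1 and 33 in the fit to these arrays alone.

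The 24 h curves were also tested against those of 2 other arms. The limma test of the difference from adult control cells, which have a single array at T20, called 0 genes (0.0%), with 479 at an unadjusted p under 0.05. For Arntl the adult peak was at 23.3 h and amplitude 1.10, and for Per3 12.1 h and 0.97. Against old calorie restricted cells 46 genes differed (0.388%, with 1639 at an unadjusted p under 0.05). Arntl peaked at 23.5 h in the control-diet cells and at 20.05 h in the restricted cells (limma adjusted p of the difference 0.00069), Sphk2 at 10.7 and 8.14 h (0.00069), Nr1d2 at 9.0 and 6.55 h (0.015) and Dbp at 10.3 and 6.92 h (0.019). In these 4 genes the fitted peak was later in the control-diet cells. The test takes the cosine and sine together, so its p-values cover amplitude as well as peak hour. A shift of the peak alone was not tested. The count of 46 depended on single times, with 7 without T8 and 92 without T12.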

How the data were processed

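RNA of sorted muscle stem cells was amplified (25 ng, 17 cycles) and hybridised to expression arrays, per the labels' protocols. The deposited log2 values were made by the authors with RMA, per the submitters' processing notes, and the log2 scale was inferred from their range. Of 45141 probe sets, 28898 list 1 gene symbol in the platform annotation, and 551 with several and 15692 with none were not used. Dim probe sets, with a mean below log2 4.5 (percentile 40), were dropped. The probe set of highest mean stood for its gene, which gave 11853 genes.

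limma 3.58.1 in R 4.3.3 was fitted to all arrays of the series. Each arm had its own mean, cosine and sine of 24 h period, or its own 6 time means, and p-values were adjusted by Benjamini-Hochberg at 5%, over genes and times together for time-point calls. A 12 h cosine and sine were added for the 12 h test. The fits were tested on simulated data. Tables and plots were made in Python 3.11.15.

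The members and gene lists were chosen with earlier results of these data known. Genes are named by rule: the clock lists, the 15 rhythmic genes of largest amplitude, the 5 largest in each 4 h window, the 4 highest and 4 lowest calls at each time, the 5 smallest p for 12 h, up to 4 rhythmic members of each list and, for each cell type, its 2 brightest markers. Other names, such as Pax7, Sdhb, Klf9, Plau and list members given with a count, were chosen after their values were seen. Array number limits the precision. Replicate numbers did not pair arrays of different times. Alternatives changed the filter, the normalisation, the arrays and times used, covariates and the model.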

Additional observations from a re-analysis of the deposited data

Results flagged for a closer look

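In 156 groups of 4 arrays, those of the genes whose array values were examined, 9 held 1 array whose gap to the nearest, as a share of the group's range, passed Dixon's critical value for 4 samples. Chance flags about 1 in 20 groups. These were the lowest arrays of Nr1d2 at T20 (6.82), Klf9 at T4 (11.2), Plau at T16 (7.83), Sox11 at T20 (7.66), Myod1 at T4 (9.485) and Sdhb at T12 (7.69), and the highest of Tsc22d3 at T4 (9.24) and T20 (8.9987) and of Lrrc49 at T8 (6.75).

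For 6 named genes the 24 h curve differed from that of old calorie restricted cells by limma's adjusted p for the difference. These were Arntl (0.00069) and Sphk2 (0.00069), Nr1d2 (0.015), Dbp (0.019), the fatty acid oxidation gene Acaa2 (0.0058), with peaks at 13.3 h in control-diet and 6.06 h in restricted cells, and the cytokine gene Tnf (0.011), with peaks at 21.6 and 11.9 h and amplitudes of only 0.14 and 0.13.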

How the results depend on the processing

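The count of 1276 rhythmic genes was 723 without the T12 arrays, 768 without T16 and 836 without T20. On ranks it was 0, where the variance shared across genes (55.9) exceeded that of Arntl (15.6), and 612 on ranks in these 24 arrays alone, an alternative chosen after seeing the data, as were the pericyte and muscle stem cell scores as covariates (1302 and 1327). Leaving out 1 array gave 1032 to 1318 rhythmic genes, 1002 to 1457 time-point calls and 75 to 137 genes with a 12 h component. It gave 0 to 0 genes that differed from adult control cells and 33 to 63 from calorie restricted cells. In fits to the arms compared alone, time-point calls numbered 729, 12 h components 33 and differences from restricted cells 16. The last count was 106 with the first residual component, 102 with time as 6 levels, 24 without T4, 7 without T8, 92 without T12, 12 without T16 and 22 without T20. Without a filter on dim probe sets 1 gene differed from adult control cells. The amplitude of Zbtb16 was 0.23 without the T0 arrays (limma adjusted p 0.33), and that of Mrps5 0.013 with the mean of its probe sets, and both curves turned direction. The cause was not tested. Of 163 named rhythmic genes 93 kept their call in all 24 omissions. With the replicate number as a block, 1150 genes were rhythmic, 1207 time-point calls were made, 117 genes had a 12 h component and 32 differed from restricted cells. Deviations of same-numbered arrays correlated at a mean of -0.02 (-0.21 to 0.20), and 7 of 24 arrays correlated best with their own number. Array signals give no read depth, so 4 arrays a time limit what can be resolved.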
